A study of Gallus gallus with 6 samples.

Results

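MiR-122 is represented by 2 of the 565 mature miRNAs counted in the liver, miR-122-5p and miR-122-3p, which were taken by name from the count table. They are the products of the left and the right arm of the miR-122 hairpins. In vertebrates, miR-122 is the miRNA for which hepatocytes are best known. It is made from a liver-restricted precursor, the 5p arm is loaded into Argonaute as the active strand, and the 3p arm is mostly discarded. Blocking it in mice reduces circulating cholesterol, and in laying hens the liver is the main site where yolk lipid is made.

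Small RNA was sequenced from the liver of 3 Lushi green-shell laying hens aged 30 weeks (L30, egg-laying) and of 3 aged 20 weeks (L20, labelled juvenile and described in the methods as pre-laying). All hens were female, untreated, kept in cages under one regime with free access to food, and each gave 1 library (L30-1 to L30-3 and L20-1 to L20-3). Age and laying go together in this design and cannot be told apart. The hens of each age are the replicates. Whole liver was used, so fewer hepatocytes and less miR-122 per hepatocyte cannot be told apart either.

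In the table, both arms are assigned to 2 hairpins together, mir-122-1 and mir-122-2, so their reads cannot be divided between the loci. In the RefSeq annotation of the GRCg7b assembly, MIR122-1 lies on chromosome Z, within the non-coding gene LOC124417505 and next to ALPK2. MIR122-2 lies on chromosome W, where it overlaps MIR122B-1, and MIR122B lies on chromosome 4 within UNC5C. Hens carry both sex chromosomes. Positions are not given, since the genome build behind the table is not stated in the sources used here. A separately listed miRNA of similar name, miR-122b, had 3, 2 and 0 reads in the L30 libraries and 6, 1 and 2 reads in the L20 libraries, where a count of 0 allows up to 3. It did not pass the filter on low counts.

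The reads counted on all listed miRNAs ranged from 3864984 to 8804077 in L30 and from 7135289 to 14822854 in L20. These reads made up 42.6%, 29.5% and 17.7% of all sequenced reads in L30-1, L30-2 and L30-3, against 56.3%, 54.5% and 47.8% in L20-1, L20-2 and L20-3. All L30 libraries thus had a smaller miRNA fraction, and L30-3 stood lowest. Levels of miR-122 are therefore given on 2 scales. The first is TPM, the reads of a miRNA scaled to a fixed number of sequenced reads by the constant of the deposited TPM values, which falls with the miRNA fraction of the library. The second is the share of the counted miRNA reads, which does not.

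Both arms of miR-122 were lower in L30 livers per sequenced read, miR-122-3p more so than miR-122-5p. As a share of the miRNA reads, only miR-122-3p passed the test. MiR-122-5p, the active strand, was one of the most abundant miRNAs of the liver at both ages.

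MiR-122-5p had 737897, 416416 and 270276 reads in L30-1, L30-2 and L30-3, against 1037162, 1854404 and 724784 reads in L20-1, L20-2 and L20-3. On the TPM scale these were 35686, 27532 and 12372 in L30, against 49611, 68225 and 48600.0 in L20. Every L30 library lay below every L20 library, and the lowest was L30-3, the library with the smallest miRNA fraction. The level averaged 25197 ± 11831 TPM in L30 and 55479 ± 11050.4 TPM in L20 (SD, n = 3 each). The ratio of these means was 0.454 (two-sided exact permutation p = 0.1, and no smaller p is possible with 3 against 3). In edgeR's quasi-likelihood test the log2 fold change was −1.14 (standard error 0.44, Benjamini-Hochberg adjusted p = 0.0378). This call was near the threshold. It was lost with clean reads, the denominator of TPM described in the methods, in place of all sequenced reads as library size (edgeR log2 fold change −1.07, adjusted p = 0.0622), and in 5 of the 6 fits that left out a library, the exception being the fit without L30-1.

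MiR-122-3p had 10788, 6202 and 4064 reads in the L30 libraries, against 18556, 36662 and 15974 reads in the L20 libraries. These were 522, 410.1 and 186 TPM in L30-1, L30-2 and L30-3, against 888, 1349 and 1071 TPM in L20-1, L20-2 and L20-3. The ages again did not overlap, and L30-3 was again the lowest. The mean level was 373 ± 171 TPM in L30 and 1103 ± 232 TPM in L20 (SD, n = 3 each). The ratio of the means was 0.338, and the log2 fold change was −1.57 (standard error 0.49, edgeR adjusted p = 0.0100). With clean reads as library size the call remained (edgeR log2 fold change −1.50, adjusted p = 0.0195). It was lost without L30-2 (edgeR adjusted p = 0.0764), without L20-2 (0.125) and without L20-3 (0.0578).

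These calls have to be read against those of all miRNAs. Per sequenced read, 75 of the 236 tested miRNAs (31.8%) were called as lower in L30 and 0 as higher. At an unadjusted p under 0.05 the same edgeR test had 93 lower and 2 higher. At an adjusted p of at most 0.05, DESeq2 called 85 as lower and 1 as higher, and limma called 80 and 0. The L30 libraries all lay below the L20 libraries for 47.5% of the tested miRNAs and all above them for 2.54%, so a gap between the ages on the TPM scale is common among the miRNAs. The median log2 fold change over all tested miRNAs was −0.93. Ordered from the most negative, miR-122-5p stood 98th and miR-122-3p 58th of 236, which places miR-122-5p near the middle of the liver's miRNAs.

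The share of the counted miRNA reads removed that common shift. MiR-122-5p made up 8.38%, 9.33% and 6.99% of the counted reads in L30-1, L30-2 and L30-3, against 8.82%, 12.5% and 10.2% in L20-1, L20-2 and L20-3. L30-2 lay above L20-1, so the ages overlapped. The mean share was 8.23% ± 1.17 in L30 and 10.5% ± 1.87 in L20 (SD, n = 3 each, two-sided exact permutation p = 0.2). The log2 fold change of the share was −0.35 (standard error 0.19, edgeR adjusted p = 0.190), and it did not pass the threshold in any of the 11 alternatives run on this scale. The 95% Wilson interval of each of these shares was at most 0.0270 percentage points to either side. This covers counting error only, since PCR copies of one molecule were not marked, and the spread between hens was far wider.

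MiR-122-3p made up 0.123%, 0.139% and 0.105% of the counted reads in L30-1, L30-2 and L30-3, against 0.158%, 0.247% and 0.224% in L20-1, L20-2 and L20-3. The ages did not overlap, although L30-2 and L20-1 were close. The mean was 0.122% ± 0.0169 in L30 and 0.210% ± 0.0465 in L20 (SD, n = 3 each, two-sided exact permutation p = 0.1, the smallest possible). The log2 fold change was −0.78 (standard error 0.22, edgeR adjusted p = 0.0323). On this scale 38 of 235 tested miRNAs (16.2%) were called as lower and 30 (12.8%) as higher, 27.2% had every L30 library below every L20 library, and 20.4% had every L30 library above. Of the 6 fits that left out a library, 2 called miR-122-3p, those without L30-2 and without L20-1. Without L30-1, L30-3, L20-2 or L20-3 the edgeR adjusted p lay between 0.0785 and 0.117.

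**Figure D1:**
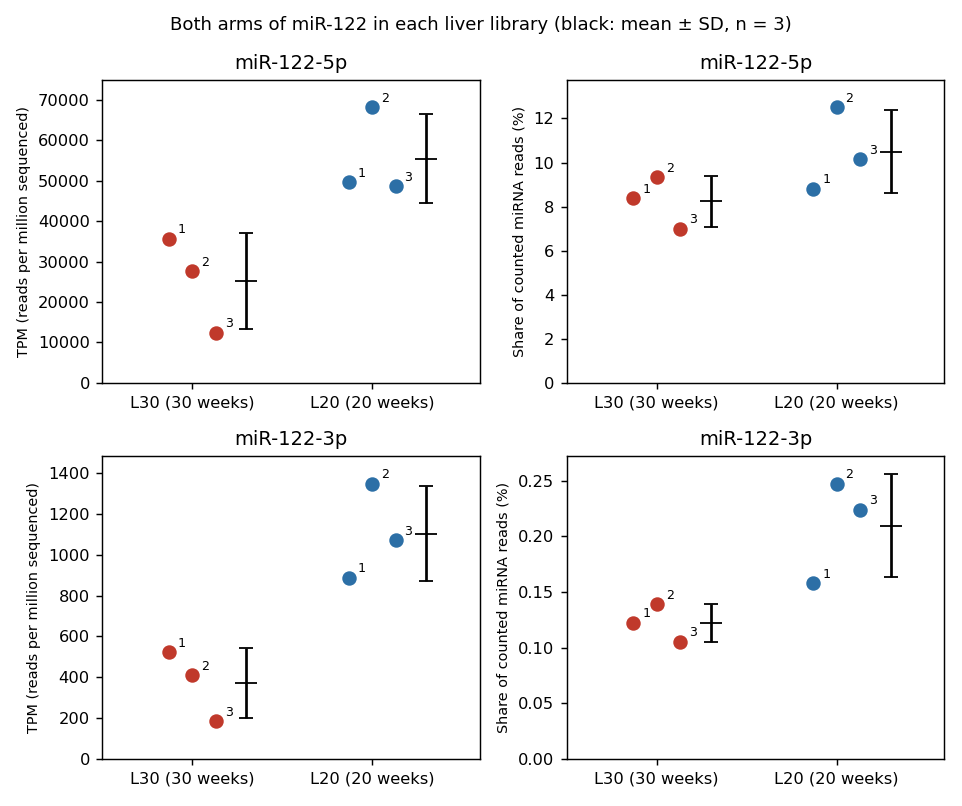
Levels of miR-122-5p (top) and miR-122-3p (bottom) in each library, as TPM (left) and as percent of the counted miRNA reads (right), with points numbered by replicate and the mean ± SD of 3 libraries in black. On the TPM scale both arms lie lower in every L30 library, whereas the shares of miR-122-5p overlap between 6.99% to 9.33% in L30 and 8.82% to 12.5% in L20.

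The TPM difference can be divided exactly into these parts, because TPM is the product of the share and the miRNA fraction of the library. For miR-122-5p, the mean log2 TPM differed by −1.25 between L30 and L20, of which −0.35 was the share among miRNAs and −0.91 the miRNA fraction. For miR-122-3p, the difference of −1.67 was made up of −0.76 and the same −0.91. Most of the TPM difference of miR-122-5p was thus of the kind that enters the TPM of every miRNA alike. The spread between hens differed by age in this respect. The coefficient of variation of miR-122-5p among L30 hens was 47.0% on the TPM scale and 14.3% as a share, whereas among L20 hens it was 19.9% and 17.8%. For miR-122-3p it was 45.9% and 13.8% among L30 hens and 21.1% and 22.2% among L20 hens.

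**Figure D2:**
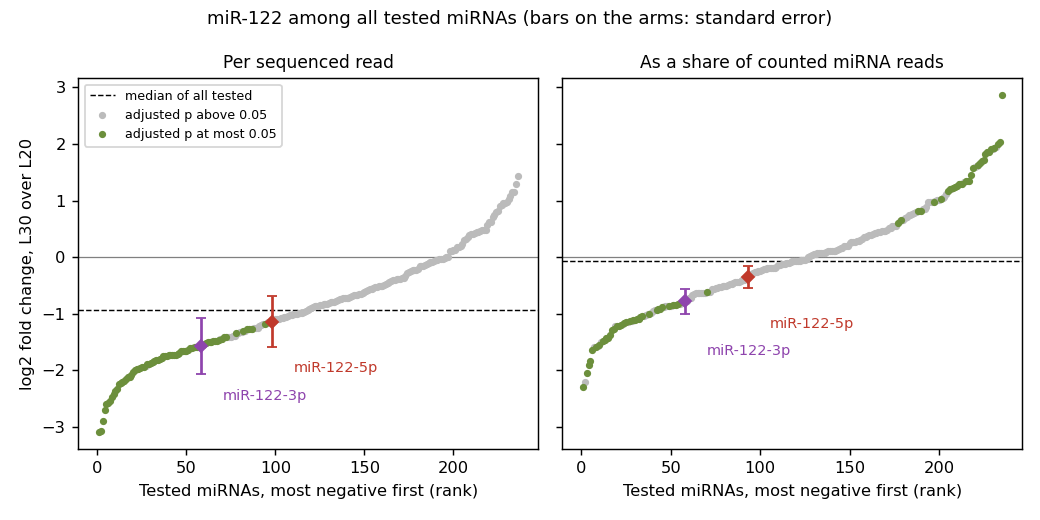
Log2 fold changes (L30 over L20, edgeR) of all tested miRNAs in order, per sequenced read (left, 236 miRNAs) and as a share of the counted miRNA reads (right, 235 miRNAs), with both arms of miR-122 as diamonds and their standard errors as bars. The dashed medians are −0.93 and −0.07, and miR-122-5p lies a little below the median on both scales while miR-122-3p lies further down.

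In the order of abundance, miR-122-5p was the 4th miRNA of all 3 L30 libraries and the 5th, 3rd and 4th of L20-1, L20-2 and L20-3. By mean share over the 6 libraries it followed miR-22-3p (15.5%), miR-148a-3p (15.3%) and miR-26a-5p (11.2%), and it came before miR-146c-5p (7.60%), miR-21-5p (6.40%) and miR-126-5p (4.20%). MiR-26a-5p ranged from 11.3% to 14.0% in L30, above every L30 value of miR-122-5p, and from 8.28% to 11.9% in L20, where the ranges overlapped. MiR-146c-5p ranged from 2.55% to 6.90% in L30, just under the lowest miR-122-5p value of 6.99%, and from 9.63% to 11.0% in L20, within the miR-122-5p range. MiR-122-3p stood 42nd, 40th and 45th in L30-1, L30-2 and L30-3, against 39th, 34th and 34th in L20-1, L20-2 and L20-3. The lower arm of miR-122 was therefore still among the 45 most abundant miRNAs of each library.

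The share of the 3p arm among miR-122 reads was smaller in every L30 liver. The ratio of 5p to 3p reads needs no library size, since both are counted in the same library. It pools the reads of both hairpins, mir-122-1 and mir-122-2. It was 68.4, 67.1 and 66.5 in L30-1, L30-2 and L30-3, against 55.9, 50.6 and 45.4 in L20-1, L20-2 and L20-3. MiR-122-3p was 1.44%, 1.47% and 1.48% of the reads of both arms in L30, against 1.76%, 1.94% and 2.16% in L20. All L30 livers were closer to pure 5p than any L20 liver. The mean log2 ratio was 6.07 ± 0.02 in L30 and 5.66 ± 0.15 in L20 (SD, n = 3 each), a difference of 0.42 (two-sided exact permutation p = 0.1, the smallest possible, and 0.129 after Benjamini-Hochberg adjustment over the 9 ratios compared). With each library left out in turn the difference stayed between 0.34 and 0.49. The L30 ratios differed among themselves about as much as counting error gives, a standard error of 0.0140 to 0.0228 on the log2 scale for a library. The L20 ratios spread over more than their counting errors, which were 0.00761 to 0.0115.

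A separation of this kind was frequent among other hairpins. Both arms had at least 10 reads in every library for 48 hairpins. The log2 ratio of 5p to 3p was higher in every L30 library than in any L20 library for 17 of them (35.4%), miR-122 included, and lower in every L30 library for 15 (31.2%). The absolute difference was 0.42 for miR-122, against a median of 0.81 over the 48 hairpins, and it was larger than that of miR-122 for 35 of them. Counting error is wider for hairpins with few reads on an arm, so these differences are of unlike precision. The arms of miR-122 were more unequal than in most, with 17 of the 48 hairpins more unequal. The direction over all 48 was nearly even, with 26 positive differences.

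**Figure D3:**
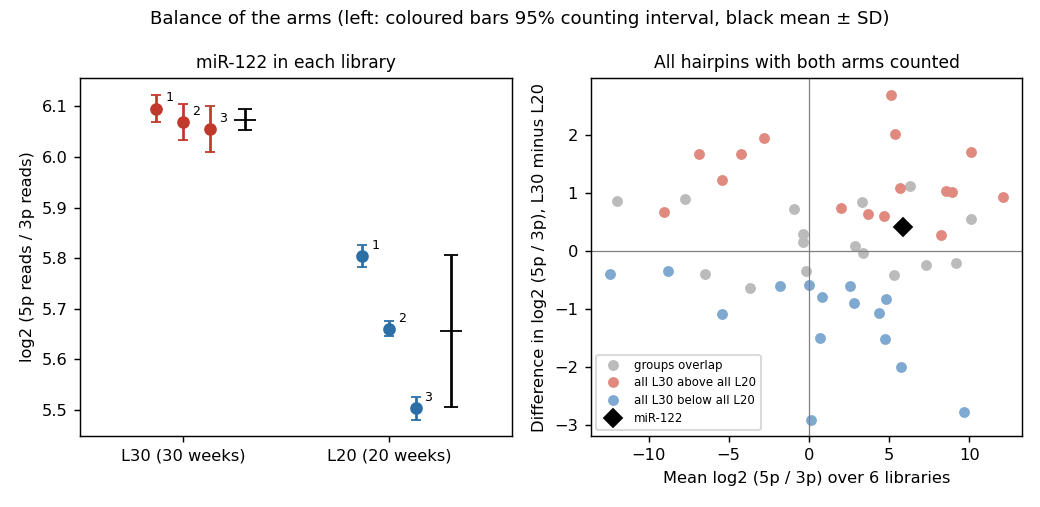
Left, log2 ratio of miR-122-5p to miR-122-3p reads in each library, with 95% counting intervals as coloured bars and the mean ± SD in black (the axis does not start at 0). Right, the L30 minus L20 difference of that ratio against its mean for 48 hairpins, with miR-122 (black diamond, 0.42) among many hairpins whose difference was larger in either direction.

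A list drawn up for hepatocytes was set beside miR-122. It held miR-122, miR-148a, miR-194, miR-215 and miR-22, of which miR-148a acts on lipoprotein uptake in mammalian liver. Whether these miRNAs are confined to hepatocytes was not tested in this whole liver. Without miR-122, their 6 products summed to between 33.0% and 38.4% of the counted reads in L30, against 25.3% to 27.5% in L20. This sum rests almost wholly on miR-22-3p and miR-148a-3p, and it was higher in L30, unlike the mean share of miR-122. Of the 6 products, 2 were called as lower per sequenced read, miR-194 and miR-215-5p, and 0 were called in either direction as a share (edgeR). Over all tested miRNAs 31.8% were called as lower per sequenced read, so 2 of 6 is near the background, and 16.2% were called as lower and 12.8% as higher as a share. The log2 fold change of the share was 0.46 for miR-148a-3p (adjusted p of 0.0715 in edgeR), 0.35 for miR-22-3p and 0.10 for miR-148a-5p. It was −1.57 for miR-194, which averaged only 0.00083% of the counted reads, −0.63 for miR-215-5p and −0.07 for miR-22-5p. The products of the list thus differed in direction.

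Set directly against miR-22-3p and miR-148a-3p, whose shares had positive log2 fold changes, miR-122-5p was lower in L30. This did not hold against miR-215-5p (below), and no ratio to miR-194 was taken. The log2 ratio of miR-122-5p to miR-22-3p was −1.12, −1.14 and −0.93 in L30-1, L30-2 and L30-3, against −0.52, −0.10 and −0.54 in L20-1, L20-2 and L20-3. The log2 ratio to miR-148a-3p was −0.82, −0.92 and −1.58 in the L30 libraries, against −0.51, −0.10 and −0.32 in the L20 libraries. In both cases the ages did not overlap, with mean differences of −0.68 and −0.80 (two-sided exact permutation p = 0.1 each, 0.129 after adjustment over the 9 ratios). In L20-2 the 3 miRNAs had nearly the same number of reads, whereas each L30 liver had about 1 log2 unit less miR-122-5p than miR-22-3p. For miR-122-3p the mean differences were −1.09 against miR-22-3p and −1.21 against miR-148a-3p, with the same p. Against miR-148a-5p they were −0.44 for miR-122-5p and −0.86 for miR-122-3p, again without overlap and with the same p. The ratio of miR-122-5p to the 227 other tested miRNAs with reads in every library lay lower in every L30 library for 60 of them (26.4%) and higher for 30 (13.2%). For miR-122-3p these were 82 (36.1%) and 12 (5.29%). Against miR-215-5p, which varied widely among L20 hens, the ratios of miR-122-5p overlapped (mean difference 0.16, exact permutation p = 1). Those of miR-122-3p to miR-215-5p overlapped too (mean difference −0.26, exact permutation p = 0.8).

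MiRNAs of other cell types were also called between the ages, beside 31.8% of all tested miRNAs called as lower per sequenced read and 16.2% as a share. The endothelial miR-126 had both its products called as lower in L30 on both scales, and their summed share ranged from 3.01% to 3.55% in L30, against 5.68% to 7.38% in L20. The erythroid miR-144 and miR-451 had 3 of 3 products called as lower per sequenced read and 1 of 3 as a share, with sums of 0.158% to 0.266% in L30, against 0.325% to 0.570% in L20. The leukocyte miR-142, miR-155 and miR-223 had 4 of 4 called as lower per sequenced read and 2 of 4 as a share, with sums of 0.519% to 0.853% in L30, against 0.943% to 1.16% in L20. None of these 3 lists overlapped between the ages in its summed share, where 27.2% of the single tested miRNAs had every L30 share below every L20 share and 20.4% had it above. Their part in the shares of miR-122 was not tested.

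The counts for the remaining lists were small and stand beside the same background of 31.8% lower per sequenced read, and 16.2% lower and 12.8% higher as a share. The epithelial list of miR-200a, miR-200b and miR-429 had 1 of 6 products called as lower per sequenced read and 0 as a share, with sums of 0.116% to 0.165% in L30 and 0.130% to 0.149% in L20. Of the mesenchymal list, miR-199 and miR-214 gave 3 products, of which 1 was called as lower per sequenced read and 0 as a share, with sums of 0.595% to 0.714% in L30 and 0.520% to 0.950% in L20. No product of miR-143, miR-145 or the muscle miR-206 was found by name in the count table. The muscle list summed to at most 0.00593% in any library, and miR-1a-3p was the 1 of its 3 tested products called, as lower on both scales. A pancreatic list, labelled islet, held miR-375, miR-217, miR-216a and miR-216b. Which pancreatic cells these miRNAs belong to was not tested. The summed share of the list went the other way, at 0.195% to 0.334% in L30 and 0.0733% to 0.0898% in L20. MiR-375 and miR-216b were called as higher as a share, the second at a mean of only 0.00021% of the counted reads. MiR-216b passed the filter on low counts on the share scale only. A miRNA this scarce may pass it only through the age where it is higher, so its call carries no weight here. The products of miR-217 and miR-216a were tested on neither scale. Per sequenced read miR-375 was the 1 product tested and was not called (log2 fold change 0.71, edgeR adjusted p = 0.250). Nearly all of that sum was miR-375.

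MiRNAs linked to lipid metabolism in mammals, other than miR-122, had 34 listed products of 16 hairpins, and no product of miR-185 was found by name. The list shares miR-22 and miR-148a with the hepatocyte list, miR-144 with the erythroid list and miR-223 with the leukocyte list. Calls of these products were thus counted in both places. Of 30 tested, 13 were called as lower per sequenced read and 0 as higher, with a median log2 fold change of −1.25, beside 31.8% called as lower and a median of −0.93 over all tested miRNAs. As a share, 6 were called as lower and 2 as higher, beside 16.2% and 12.8% of all tested miRNAs. The median was −0.48, beside −0.07 over all tested miRNAs. The values for its most abundant products differed among themselves. MiR-22-3p and miR-148a-3p had positive log2 fold changes of the share, 0.35 and 0.46, that were not called, miR-21-5p had −0.54 (adjusted p of 0.122 in edgeR), and miR-30c-5p had −0.07 (adjusted p of 0.849 in edgeR). The value of −0.35 for miR-122-5p lay between them.

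**Figure D4:**
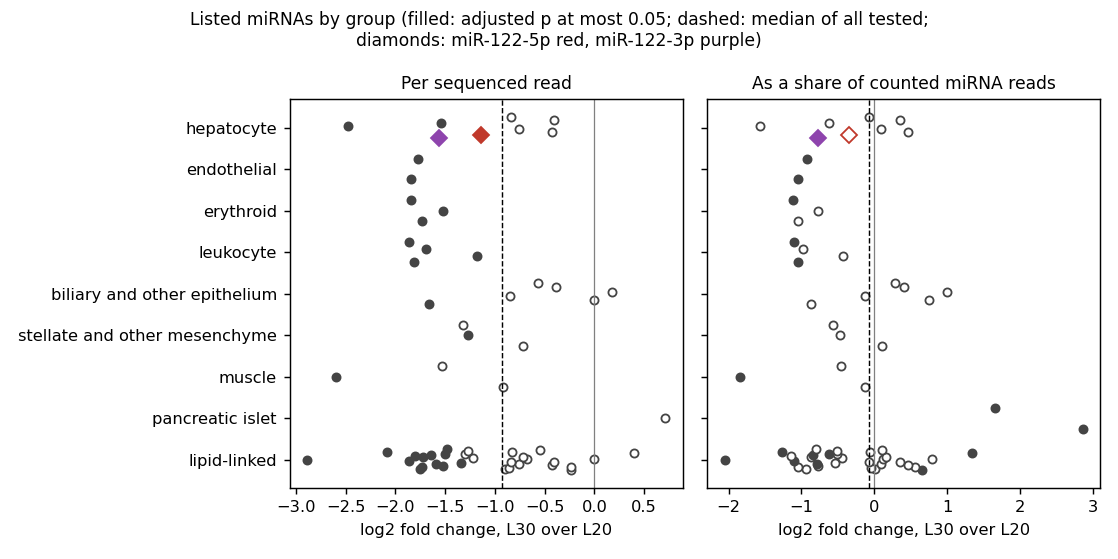
Log2 fold changes (L30 over L20, edgeR) of the products of each list, per sequenced read (left) and as a share of the counted miRNA reads (right), filled where the adjusted p was at most 0.05, with the medians of all tested miRNAs dashed. As a share, miR-122-5p (red diamond, −0.35) is open and miR-122-3p (purple diamond, −0.78) is filled, and the endothelial, erythroid and leukocyte products lie further to the left than miR-122-5p.

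The miRNAs whose share followed that of miR-122-5p most closely over the 6 libraries were miR-193b-3p (Pearson r of the log2 shares 0.950), let-7g-3p (0.949), miR-23b-3p (0.940), miR-122-3p itself (0.930) and miR-2954 (0.929), among 228 compared. These coefficients describe 6 libraries that share one denominator, and no test was made of them. The other arm of miR-122 thus ranked 4th. MiR-193b-3p, for example, had 0.0878%, 0.136% and 0.0759% of the counted reads in L30-1, L30-2 and L30-3, against 0.136%, 0.272% and 0.133% in L20-1, L20-2 and L20-3. As with miR-122-5p, L20-2 was the highest and L30-3 the lowest, and L30-2 was the highest of the L30 libraries. Of these 5, miR-122-3p and miR-23b-3p were called as lower as a share, the second with a log2 difference of −0.91 (adjusted p of 0.0452 in edgeR). Over all tested miRNAs 16.2% were called as lower as a share. The 5 were chosen because their shares follow miR-122-5p, whose mean share was lower in L30. They cannot be judged against that background. MiR-2954, encoded on the Z chromosome in birds, had −0.18 on the same scale, which was not called (adjusted p of 0.502 in edgeR).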

How the data were processed

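Small RNA libraries of 6 chicken livers were analysed. According to the methods, the Fastx toolkit was used to trim adaptors and to discard short, ambiguous or low-quality reads, and clean reads were aligned to miRBase with CLC Genomics Workbench, tolerating mismatches and shortened or extended ends, so that near-identical miRNAs could be counted for one another. The authors deposited raw read counts of 565 mature miRNAs per library, and TPM values that equal the counts divided by 1 constant per library, taken here as the sequenced reads. The methods describe TPM as relative to clean reads, whereas this constant matches the raw reads, so clean reads were run as an alternative library size. 0 sample columns were left unmapped.

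The counts went into the robust quasi-likelihood test of edgeR 4.0.16, run in R 4.3.3, after filterByExpr (minimum count 10, minimum total 15), with the constant of the TPM values as library size, or the summed counts for shares. Factors were 1, and p values were adjusted by Benjamini and Hochberg over all tested miRNAs, with 0.05 as threshold. Standard errors given with edgeR are the absolute log2 fold change divided by the square root of the test's F statistic. Alternatives used clean reads as library size, TMM, upper quartile and DESeq2 size factors, DESeq2 1.42.0, limma 3.58.1 on log2(TPM + 1), other filters, denominators and pseudocounts, a replicate block, and each library left out. Ratios and means were compared by exact permutation over 20 regroupings (scipy 1.17.1). The edgeR and DESeq2 fits were tested on simulated counts with as many rises as falls, which did not model the unequal miRNA fraction of the libraries. A limit of 3 counts corresponds to 0.110 to 0.201 TPM. Figures were drawn with matplotlib 3.10.9.

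Same-numbered libraries of both ages come from different hens. Their deviations from the group means correlated at 0.125, 0.175 and 0.185 across miRNAs, and those of differently numbered libraries at −0.139 to −0.017. Deviations from a group mean cancel within an age, so these values are not independent. They are only a hint from the data that same-numbered libraries may be alike, which was not tested.

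The miR-122 arms, the lists and the tests were chosen with earlier results of these data known. Named in addition were the 5 miRNAs most like miR-122-5p, its neighbours in abundance and up to 4 products per list. The hepatocyte list was the exception, with all 6 of its products other than miR-122 given. No mature or hairpin sequence was used here, and predicted targets were not analysed here.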

Additional observations from a re-analysis of the deposited data

How the results depend on the processing

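Both arms of miR-122 kept a negative log2 fold change in every alternative run. A change of library size or factors shifts both arms alike, so it could not change their order. With each library left out, miR-122-3p also stayed the more negative arm on both scales. The call of miR-122-5p per sequenced read was lost with clean reads, and only 1 of the 6 fits that left out a library kept it. Its log2 fold change depended most on the scaling. Of the scalings below, only clean reads still count per read of the library. The others set miR-122-5p against the other miRNAs, and the summed counts are the share given above. For miR-122-5p the edgeR log2 fold change was −1.07 with clean reads, −0.53 under TMM factors, −0.35 with the summed counts or with DESeq2's size factors and −0.14 under upper quartile factors. The adjusted p values were 0.0622, 0.0612, 0.190, 0.210 and 0.693. Without a filter on low counts the value stayed at −1.14 and the adjusted p was 0.0849. MiR-122-3p missed the threshold under upper quartile factors (log2 fold change −0.57, edgeR adjusted p = 0.132). Leaving out each library gave −1.48 to −0.81 for miR-122-5p and −1.89 to −1.24 for miR-122-3p per sequenced read, and −0.46 to −0.20 for miR-122-5p and −0.95 to −0.64 for miR-122-3p as shares. The −0.20 was the fit without L20-2, against −0.35 with all libraries.

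Between 11 and 118 miRNAs were called per sequenced read when a library was left out, the fewest without L30-2 and the most without L30-1, and 48, 33, 23 and 37 without L30-3, L20-1, L20-2 and L20-3. For shares the range was 31 to 64, with 32 without L20-2 and 31 without L20-3. Of the listed miRNAs other than miR-122, 24 of 51 were called per sequenced read, all as lower, beside 75 of all 236 tested. With the summed counts these were 15 of 52 (11 lower and 4 higher), beside 68 of all 235 tested. Per sequenced read, between 2 and 32 of the listed miRNAs were called when a library was left out. These alternatives for the listed miRNAs were chosen after seeing the data. Over all tested miRNAs the split of calls moved with the scaling. It was 57 lower and 22 higher under TMM factors, 39 and 33 under DESeq2's size factors and 25 and 42 under upper quartile factors. With the replicate block, the log2 fold changes were −1.25 for miR-122-5p and −1.67 for miR-122-3p per sequenced read (edgeR adjusted p = 0.00484 and 0.000258), −0.35 and −0.76 as shares, 94 miRNAs were called per sequenced read, and the block changed no call of either arm. The difference in log2 arm ratio was 0.42 with the block (sign flips of 3 pairs, exact p = 0.25, the smallest possible).

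With 3 hens an age, the exact tests could not reach 0.05. Depth did not limit either arm, whose lowest count was 4064 reads, whereas the unequal miRNA fraction of the libraries limits what the TPM scale can say of a single miRNA. Age, laying and the miRNA fraction of the libraries move together and cannot be told apart.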
